A study of Amia calva with 36 samples.

Results

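The genes described here are 82 genes of the bowfin (Amia calva) whose RNA level was highest in the dorsal mesoderm of the foregut at stage 27 and which were seldom read in that tissue at stages 24 and 25. Levels are given in CPM, the reads of a gene scaled to the reads assigned to genes in its library, and were deposited on the log2 scale. A gene with a spotted gar ortholog was a member when its deposited value was above 0.88, which means at least 1 read, in all 3 dorsal mesoderm libraries of stage 27 and in at most 3 of the 6 dorsal mesoderm libraries of stages 24 and 25. Its mean log2 CPM in stage 27 dorsal mesoderm also had to be at least 2 above the highest mean of the other 3 captured regions. Of 21948 genes, 11428 carried a gar identifier. Of these, 4665 were read in all 3 stage 27 dorsal mesoderm libraries, and 2545 of those also met the limit at the earlier stages. The difference of at least 2 left 82, so the limit of 100 genes was not reached. The same rule applied to the other regions gave 96 genes for ventral mesoderm, 66 for dorsal endoderm and 50 for ventral endoderm.

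The bowfin is a ray-finned fish with an air-filled gas bladder that buds from the dorsal side of the foregut, while the lungs of other vertebrates bud from the ventral side. The foregut tube is lined by endoderm, which forms the epithelium of the organs that bud from it. The mesoderm around it forms smooth muscle, connective tissue and vessels, and it exchanges signals with the endoderm as buds form and grow. The study's title names the dorsal-ventral inversion of air-filled organs as its subject.

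RNA was sequenced from tissue cut by laser capture from transverse sections of bowfin embryos, reared at 12.8 °C from eggs taken from wild nests, with no genetic or chemical treatment in the labels. The groups were dorsal mesoderm, ventral mesoderm, dorsal endoderm and ventral endoderm, each at stage 24 (before the gas bladder buds), stage 25 (at budding) and stage 27 (during outgrowth). Each of the 12 groups held 3 libraries, and the labels do not tie a library to an embryo, so the spread behind each p-value is that between libraries and may be technical. The files do not pair the identifiers with gene names, so genes are given by bowfin and gar identifiers, no role or pathway is given, and the captured layers were not checked against named markers.

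Libraries held 3040 to 1998280 reads. Replicate 3 of stage 24 ventral endoderm held the 3040 reads, spread over 1259 genes, and each of the other 35 held at least 377516. Stage 27 libraries held reads of 8511 to 13512 genes. Among the earlier libraries the number of genes with a read ran from 1259 to 8249. Stage therefore moved with the number of genes read, and stage cannot be told apart from a batch of libraries.

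At stage 27 the level of the 82 genes in dorsal mesoderm stood 2.00 to 5.71 above the next highest region on the log2 CPM scale, with a median difference of 2.45. The median over the genes of their mean level was 56.9 CPM in dorsal mesoderm. It was 6.08 CPM in ventral mesoderm, 2.97 CPM in dorsal endoderm and 1.78 CPM in ventral endoderm. Over the 2545 genes that met the rule apart from the difference, these medians were 29.2, 24.8, 20.6 and 20.0 CPM in the same order. These levels, and the reads of early dorsal mesoderm, chose the genes and are a description with no test. In captured tissue, fewer cells of a type and less RNA per cell cannot be told apart.

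The edge of the rule fell among genes with nearly equal values. Just inside were AMCG00000980 (gar ENSLOCG00000008286), with a log2 difference of 2.03, and AMCG00002818 (ENSLOCG00000008292), with 2.00. Just outside were AMCG00012859 (ENSLOCG00000015566), with 1.99, and AMCG00012752 (ENSLOCG00000015325), with 1.97.

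**Figure D1:**
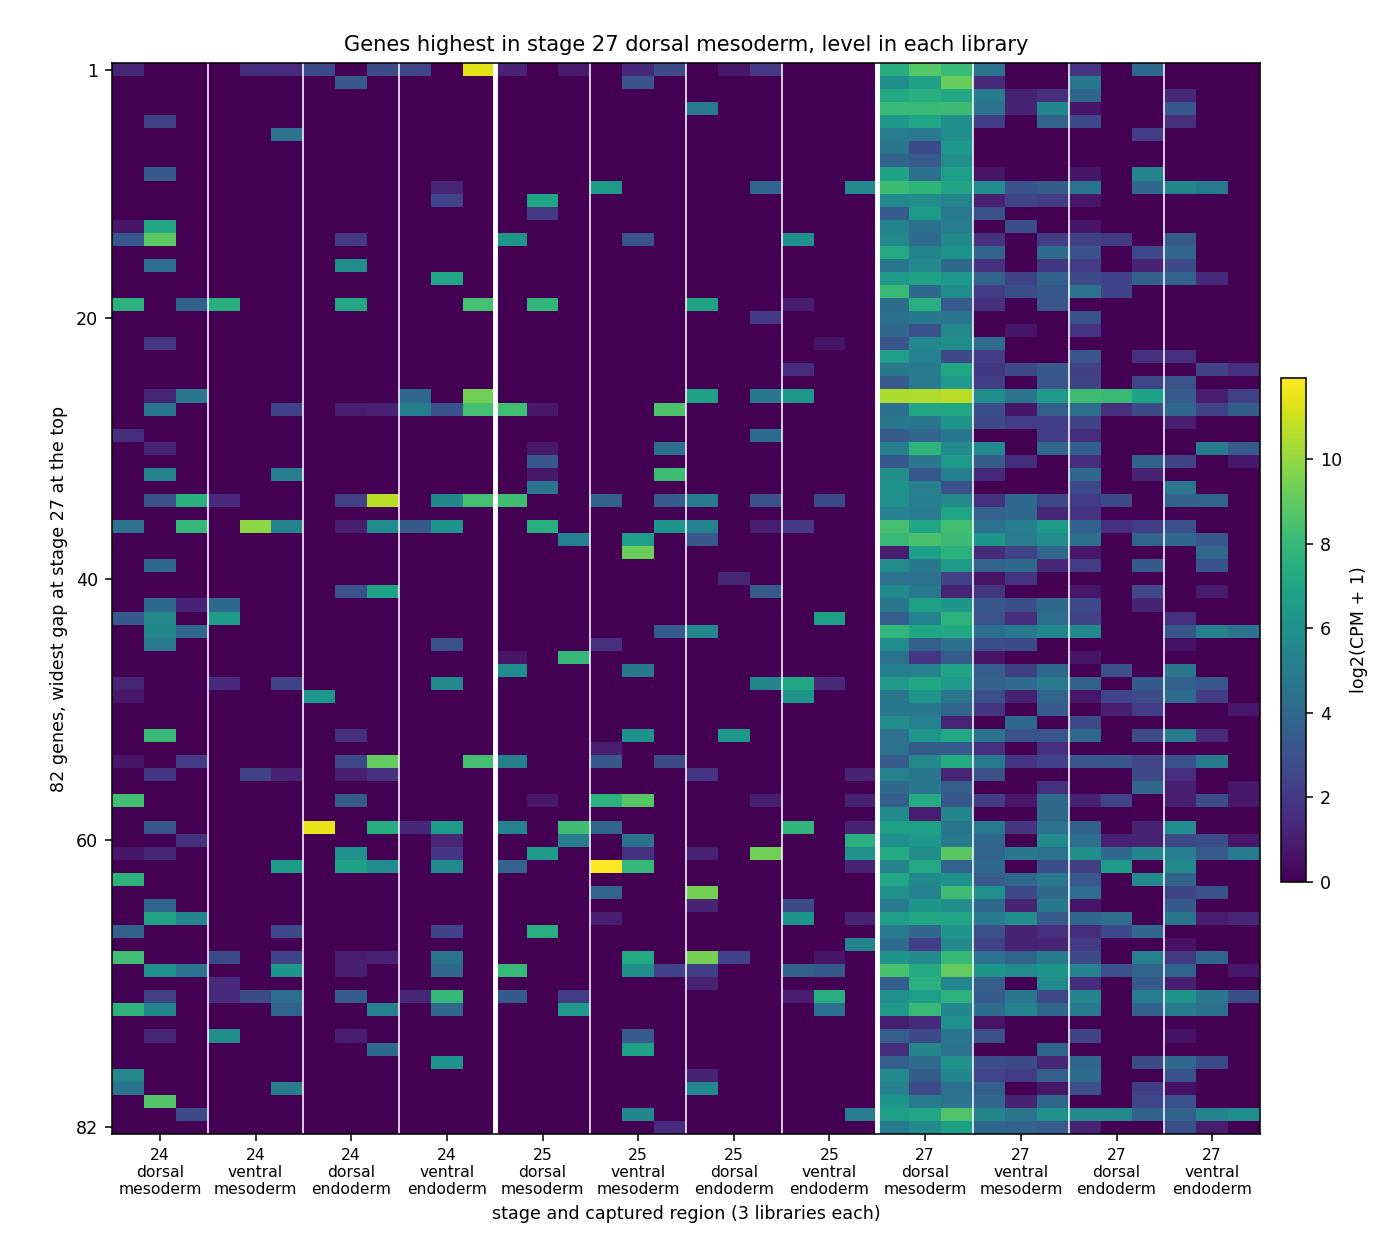
Levels of the 82 genes as log2(CPM + 1), one row per gene with the largest stage 27 difference at the top and one column per library, grouped by stage and region. The 3 stage 27 dorsal mesoderm columns are filled in every row, as the rule requires, while the stage 24 and 25 columns are mostly at 0 with scattered single bright cells.

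Summed over the 82 genes, the level in stage 27 dorsal mesoderm was 6869, 7513 and 9714 CPM in replicates 1, 2 and 3. In ventral mesoderm the sums were 1047, 563 and 1107 CPM, in dorsal endoderm 998, 502 and 556 CPM, and in ventral endoderm 661, 326 and 143 CPM. The lowest dorsal mesoderm library thus lay above the highest of the other 9. A single gene, AMCG00016115, carried 1384, 1444 and 1631 CPM of the dorsal mesoderm sums. Without it the dorsal mesoderm sums were 5485, 6069 and 8083 CPM, and the highest sum of any other library was 1022 CPM, in ventral mesoderm replicate 3.

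Gene by gene, the lowest of the 3 dorsal mesoderm libraries lay above the highest of the other 9 stage 27 libraries for 50 of the 82 genes, and the groups overlapped for 32. Over all 13471 genes with more than 1 CPM in at least 3 stage 27 libraries this held for 2.00%. The rule used the same contrast, so nothing is read from the difference between these shares.

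The largest difference to the next region was that of AMCG00004155 (ENSLOCG00000015840), with a log2 difference of 5.71. Its stage 27 dorsal mesoderm libraries held 173, 436 and 260 CPM. Ventral mesoderm held 20.5, 0 and 0 CPM, dorsal endoderm 2.57, 0 and 15.4 CPM, and ventral endoderm no read. The dorsal mesoderm libraries were all higher than every library of the other regions. Against the floor set by 3 counts over the ventral endoderm reads, the dorsal mesoderm mean of 290 ± 134 CPM (SD, n = 3) was 442-fold higher. This fold is to the region with no read and comes from the contrast that chose the gene. The folds to ventral mesoderm and dorsal endoderm, which held reads, are smaller. Reads come from amplified cDNA and are not independent molecules, so floors cover counting error only.

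AMCG00012666 (ENSLOCG00000015474) was the next in rank, with a log2 difference of 5.08. Its dorsal mesoderm libraries held 57.9, 112 and 559 CPM, and the highest other library was dorsal endoderm replicate 1 with 27.6 CPM. Replicate 3 held most of its dorsal mesoderm level, and the mean of 243 ± 275 CPM (SD, n = 3) had an SD larger than itself. Ventral mesoderm held 1.71, 0 and 0 CPM, and ventral endoderm held no read.

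For 2 genes no read was found in any of the other 9 stage 27 libraries, nor in any of the 24 libraries of stages 24 and 25. They were singled out after their values were seen. AMCG00016348 (ENSLOCG00000006222) had 25.5, 5.30 and 81.6 CPM in dorsal mesoderm. Its mean of 37.5 ± 39.5 CPM (SD, n = 3) was 59.3-fold the floor of ventral mesoderm, 41.7-fold that of dorsal endoderm and 57.1-fold that of ventral endoderm. AMCG00006576 (ENSLOCG00000001323) had 13.7, 9.71 and 58.1 CPM. Its mean of 27.2 ± 26.8 CPM (SD, n = 3) was 43.0-, 30.2- and 41.4-fold the same floors. Both genes were thus read in the 3 stage 27 dorsal mesoderm libraries and in no other, with replicate 3 the highest for each. Replicate 3 held most of both means, so the folds do not hold for each library. They also come from the contrast that chose the genes.

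At the other end, 4 genes were read in all 9 other stage 27 libraries, namely AMCG00016115, AMCG00000392 (ENSLOCG00000011193), AMCG00014209 (ENSLOCG00000010087) and AMCG00000980. For AMCG00000980 the dorsal mesoderm libraries held 100.1, 132 and 400 CPM. Its ventral mesoderm libraries held 42.1, 24.9 and 66.3 CPM, its dorsal endoderm libraries 48.8, 49.2 and 11.9 CPM, and its ventral endoderm libraries 12.0, 39.0 and 55.3 CPM. The other 3 regions overlapped one another, and all 3 dorsal mesoderm libraries lay above them. AMCG00014209 held 159, 57.4 and 467 CPM in dorsal mesoderm, 13.7, 26.1 and 20.4 CPM in ventral mesoderm, 59.7, 16.0 and 41.5 CPM in dorsal endoderm and 33.5, 9.74 and 28.3 CPM in ventral endoderm. Here dorsal mesoderm replicate 2 fell below the highest dorsal endoderm library, so the groups overlapped.

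**Figure D2:**
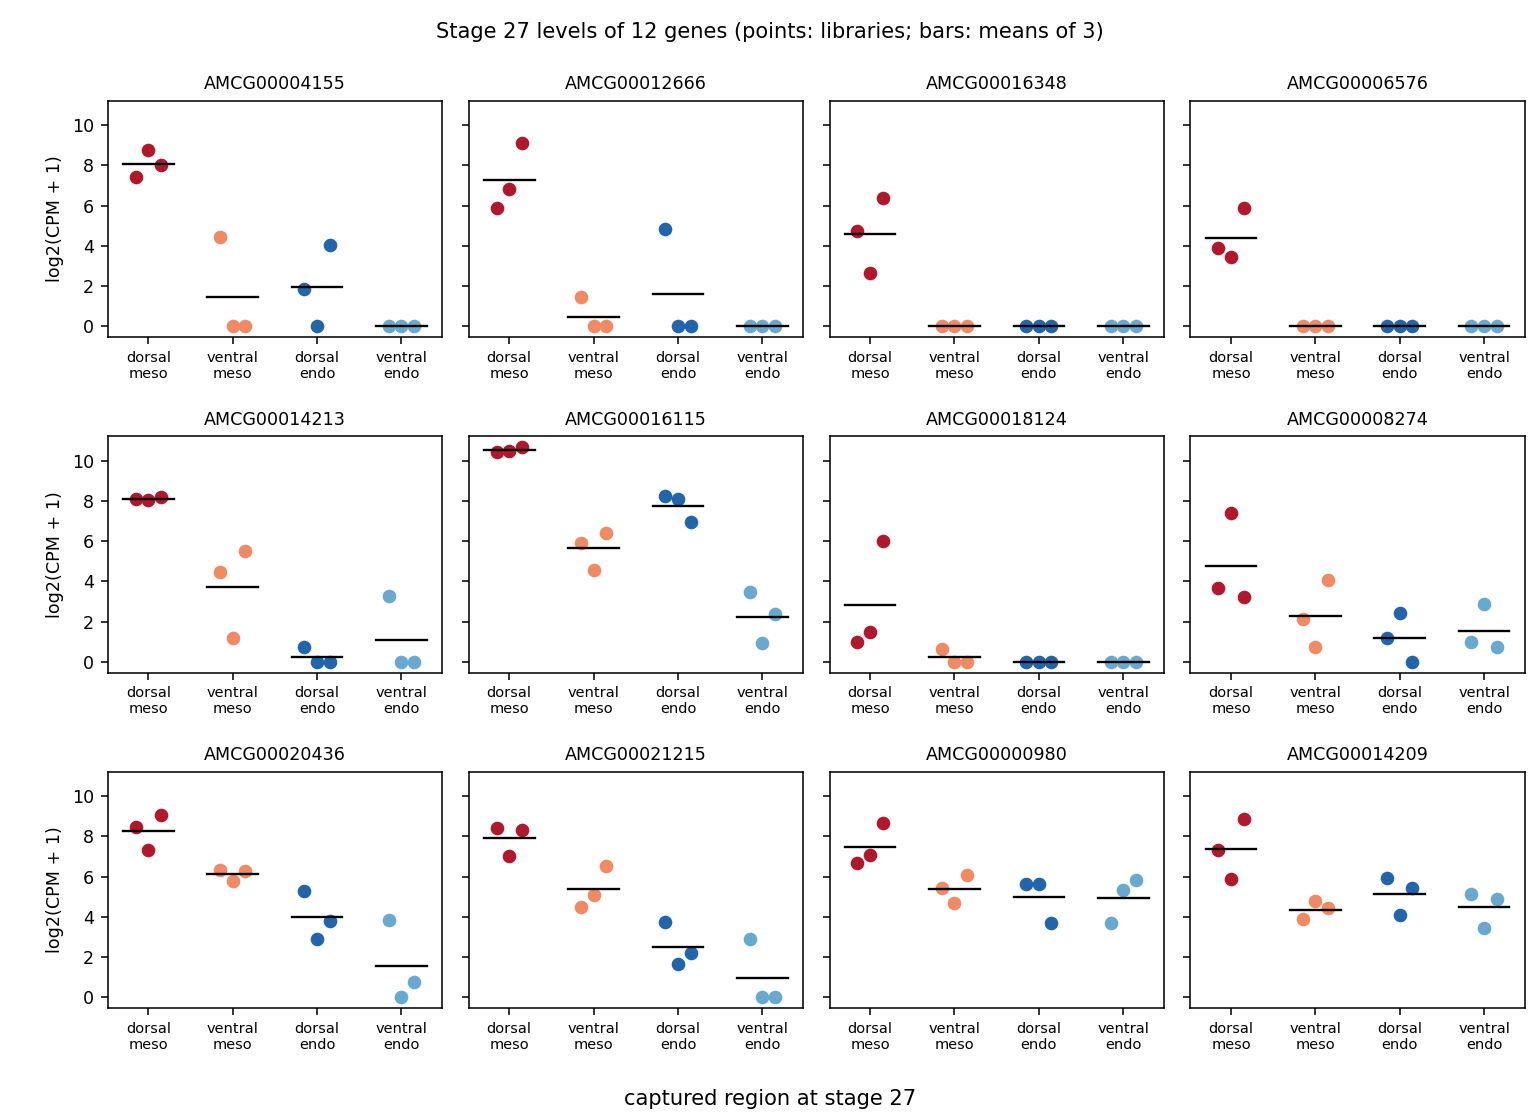
Levels of 12 of the genes in the 12 stage 27 libraries as log2(CPM + 1), with a point per library and a bar at the mean of the 3 log values of each region. AMCG00016348 and AMCG00006576 sit at 0 in all 9 libraries outside dorsal mesoderm, AMCG00000980 and AMCG00014209 have a read in every library, and AMCG00016115 is intermediate in dorsal endoderm and ventral mesoderm.

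The 3 dorsal mesoderm libraries differed from one another by widely varying amounts across the genes. The coefficient of variation (SD over mean) of CPM ran from 0.0581 to 1.62, with a median of 0.712. The highest library was less than 2 times the lowest for 14 genes and more than 10 times the lowest for 17 genes. Replicate 1 was highest for 24 genes, replicate 2 for 25 and replicate 3 for 33. Replicate 3 was also the library with the fewest reads, 723011 against 1019146 and 1133036, and the fewest genes with a read, 8511 against 12602 and 11012. The median level of the 82 genes was 38.8, 40.6 and 58.1 CPM in replicates 1, 2 and 3. The part of depth in these differences was not tested.

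The most even genes were AMCG00014213 (ENSLOCG00000010127) and AMCG00016115 (ENSLOCG00000008539). AMCG00014213 held 267, 260.4 and 290.5 CPM in dorsal mesoderm, a coefficient of variation of 0.0581. It held 21.1, 1.28 and 45.1 CPM in ventral mesoderm, 0.642, 0 and 0 CPM in dorsal endoderm and 8.51, 0 and 0 CPM in ventral endoderm. All 3 dorsal mesoderm libraries were far above the highest other library, ventral mesoderm replicate 3. AMCG00016115 had a dorsal mesoderm mean of 1486 ± 128 CPM (SD, n = 3) and a coefficient of variation of 0.0864.

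The least even genes were AMCG00018124 (ENSLOCG00000002644) and AMCG00008274 (ENSLOCG00000002043). AMCG00018124 held 0.981, 1.77 and 62.2 CPM in dorsal mesoderm, which were 1, 2 and 45 reads, so nearly all of its level lay in replicate 3. AMCG00008274 held 11.8, 167 and 8.30 CPM, so its level lay in replicate 2. Of the 9 other libraries, ventral mesoderm replicate 1 held 1 read of the first gene and the rest held none, so dorsal and ventral mesoderm replicate 1 each had 1 read and differed in CPM, 0.981 against 0.569, only through their library totals. In the second gene ventral mesoderm replicate 3, with 15.5 CPM, lay above dorsal mesoderm replicates 1 and 3.

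Outside dorsal mesoderm, the second highest region at stage 27 was ventral mesoderm for 60 of the 82 genes (73.2%), dorsal endoderm for 19 (23.2%) and ventral endoderm for 3 (3.66%). Among the 2545 genes without the difference criterion the shares were 45.2%, 26.6% and 28.3%. The rule capped the highest of these same means, so the second region is not independent of the rule. The shares are a description, and nothing is read from the difference between the lists. The count for ventral mesoderm ran from 52, without ventral mesoderm replicate 1, to 65, without dorsal endoderm replicate 1, when each of the 9 libraries was left out in turn. The count for ventral endoderm rose to 11 without ventral endoderm replicate 3 and fell to 1 without dorsal endoderm replicate 2. The 3 ventral mesoderm libraries lacked any read of 5 genes, those of dorsal endoderm lacked 11 and those of ventral endoderm lacked 26. A read in all 3 libraries was found for 42 genes in ventral mesoderm, 11 in dorsal endoderm and 9 in ventral endoderm.

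The number of the 82 genes with a read varied widely within each region. It was 70, 48 and 59 in ventral mesoderm, 65, 19 and 39 in dorsal endoderm and 50, 27 and 15 in ventral endoderm. Replicate 1, the highest in each of these regions, was also the library of its region with the most reads and the most genes read. At an equal depth of 723011 reads the expected numbers were 65.6, 43.6 and 56.9 in ventral mesoderm, 58.4, 18.4 and 38.3 in dorsal endoderm and 44.8, 25.3 and 11.6 in ventral endoderm. The order of the libraries was therefore as without thinning.

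The rule used the other 3 stage 27 regions through the highest of their means, which it capped relative to dorsal mesoderm. It did not set their order, but the cap limits how far they can differ, so the tests among them are not independent of the rule and are given as a description, with nothing read from the shares beside all genes. The tests used limma on the deposited log2 CPM of the 12 stage 27 libraries, with p-values adjusted by the Benjamini-Hochberg method over all 13471 genes and a threshold of 0.05. Of the 82 genes, 81 had more than 1 CPM in at least 3 stage 27 libraries and were tested. AMCG00018124 was not. The genes meet this filter chiefly through dorsal mesoderm, which is not compared, since the rule requires a read in its 3 libraries. AMCG00016348 and AMCG00006576 were thus tested without a read in any compared library. Nothing is read from the counts and medians set beside those of all genes. Log2 differences are on the scale of the deposited values, to which a prior count had been added, and understate the differences of genes with few reads.

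Between ventral mesoderm and ventral endoderm, 3 of the 81 genes differed, each higher in ventral mesoderm, beside 3.15% of all genes tested. The fitted difference was above 0 for 72 genes and below 0 for 5, with a median log2 difference of 1.00. The median of all genes tested was 0.15, with 54.7% above 0. These counts turned on single libraries. With limma, no gene passed without ventral mesoderm replicate 1 or 3 or without ventral endoderm replicate 2, and 1 passed without ventral mesoderm replicate 2 or ventral endoderm replicate 3. Without ventral mesoderm replicate 1, 56 fitted differences remained above 0.

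AMCG00020436 (ENSLOCG00000005747) held 78.5, 53.6 and 77.5 CPM in ventral mesoderm and 13.5, 0 and 0.691 CPM in ventral endoderm. All 3 ventral mesoderm libraries were above all 3 of ventral endoderm. The log2 difference was 4.09 (SE 1.00, adjusted p = 0.0153, limma), and over 14 alternatives the adjusted p ran from 0.0024 to 0.261, with 8 keeping the call. Its dorsal endoderm libraries, at 38.5, 6.42 and 13.0 CPM, overlapped those of ventral endoderm. Its dorsal mesoderm libraries held 350.3, 156 and 535 CPM.

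AMCG00021215 (ENSLOCG00000014215) held 21.6, 33.2 and 90.2 CPM in ventral mesoderm and 6.51, 0 and 0 CPM in ventral endoderm. These libraries did not overlap either. The log2 difference was 3.80 (SE 1.11, adjusted p = 0.0494, limma). Over 14 alternatives the adjusted p ran from 0.0057 to 0.469, with 6 keeping the call. Its dorsal mesoderm libraries held 341, 127 and 314 CPM.

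AMCG00016115 differed in both comparisons with ventral endoderm. Its ventral mesoderm libraries held 59.2, 23.0 and 84.6 CPM, its dorsal endoderm libraries 299.8, 271 and 121 CPM, and its ventral endoderm libraries 10.0, 0.886 and 4.15 CPM. None of these 3 regions overlapped another, and the order was dorsal endoderm, ventral mesoderm, ventral endoderm below the dorsal mesoderm. Ventral mesoderm minus ventral endoderm was 3.14 (SE 0.74, adjusted p = 0.0104, limma), and 9 of 14 alternatives kept the call, with adjusted p from 0.0025 to 0.474. Dorsal endoderm minus ventral endoderm was 5.23 (SE 0.74, adjusted p = 0.000296, limma). That call was kept in 13 of 14 alternatives and lost with a spread taken from all 36 libraries (adjusted p from 1.86e-05 to 0.26). Dorsal endoderm minus ventral mesoderm was 2.09 (SE 0.74, adjusted p = 0.152, limma) and did not pass. The order of those regions is thus a description of the libraries. The dorsal mesoderm mean was 6.45-fold that of dorsal endoderm, 26.7-fold that of ventral mesoderm and 296-fold that of ventral endoderm, which are folds of CPM means from the contrast that chose the gene.

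Between dorsal and ventral endoderm, AMCG00016115 was the 1 gene of 81 that differed, beside 0.0371% of all genes tested. Fitted differences were above 0 for 52 genes and below 0 for 20, with a median of 0.24 against 0.01 for all genes. Without dorsal endoderm replicate 1 the counts were 28 above and 35 below. The balance of directions between the endoderm regions thus rested on that library.

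Between dorsal endoderm and ventral mesoderm none of the 81 genes differed by limma, beside 1.99% of all genes tested. At an unadjusted p under 0.05 (limma) there were 8 of the 81 genes, beside 1729 of all 13471 genes tested. With limma voom on recovered reads 0 genes were called as well, with 9 at an unadjusted p under 0.05. Nothing is read from these unadjusted counts. Fitted differences were above 0 for 22 genes and below 0 for 57, with a median of -0.76 against -0.11 for all genes. The smallest adjusted p was 0.152 (limma), that of AMCG00016115.

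**Figure D3:**
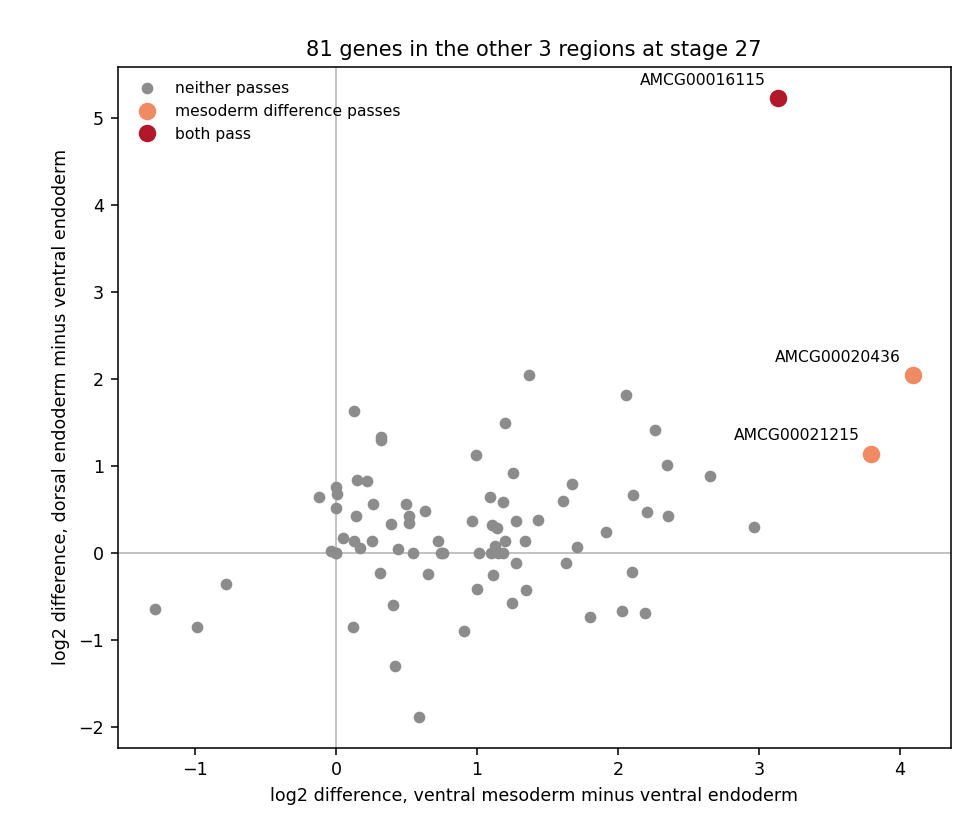
Fitted log2 differences of the 81 genes at stage 27, with ventral mesoderm minus ventral endoderm on the horizontal axis and dorsal endoderm minus ventral endoderm on the vertical axis. Both axes share the ventral endoderm libraries. Most genes lie right of 0, AMCG00020436 and AMCG00021215 pass the test on the horizontal axis, and AMCG00016115 passes on both, at 3.14 and 5.23.

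At stages 24 and 25 the genes were read in few libraries of any region. In the 6 dorsal mesoderm libraries, which the rule used, 32 genes had no read, 26 were read in 1 library, 12 in 2 and 12 in 3. The other 18 early libraries were not used by the rule. In the 17 of them other than the library of 3040 reads, 3 to 18 of the 82 genes had a read, with a median of 10 genes. That is 3.66% to 22.0%, with a median of 12.2%. The same libraries held a read for 11.7% to 63.5% of the 2545 genes without the difference criterion, with a median of 29.0%, and the 82 genes had the lower share in 17 of 17. In the library of 3040 reads the shares were 7.32% and 5.93%. The summed level of the 82 genes was not lower early in most groups. In ventral mesoderm its mean was 559, 2306 and 906 CPM at stages 24, 25 and 27. In dorsal endoderm it was 2053, 900 and 685 CPM, and in ventral endoderm 1838, 462 and 376 CPM. Single genes could carry such sums, as 3859 of 4192 CPM in stage 25 ventral mesoderm replicate 1. The 1838 CPM includes the library of 3040 reads.

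No read in any of the 24 early libraries was found for 15 of the 82 genes (18.3%), compared with 3.73% of the 2545. The 82 genes had the higher median level of these lists in stage 27 dorsal mesoderm, 56.9 against 29.2 CPM. These lists differ by the rule's difference criterion, so nothing is read from the difference between their shares.

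**Figure D4:**
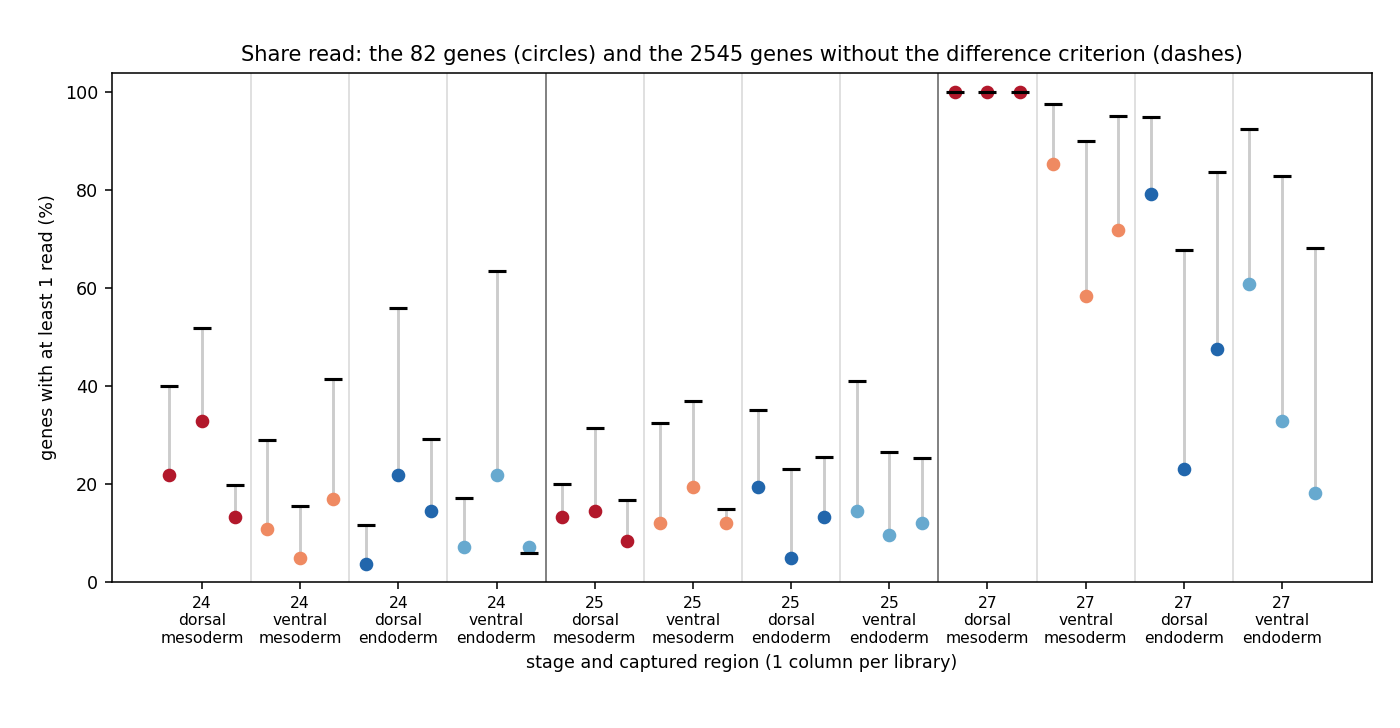
Share of genes with at least 1 read (%) in each of the 36 libraries, with circles for the 82 genes and dashes for the 2545 genes that met the rule apart from the difference between regions. The circle lies below the dash in all 9 stage 27 libraries outside dorsal mesoderm, which the rule favours. It also does so in 17 of the 18 early libraries outside dorsal mesoderm, the exception being the library of 3040 reads. Those early libraries are of the regions that the rule capped at stage 27, so nothing is read from the difference.

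Where early reads were found, they were concentrated in single libraries. Outside the library of 3040 reads, 67 genes were read in at least 1 of 23 early libraries, with a median of 2 libraries over the 82 genes and at most 13. For the 48 genes read in at least 2 of them, the highest library held a median of 66.8% of the gene's summed early CPM. For 39 genes some early library lay above the gene's own stage 27 dorsal mesoderm mean. The count was 40 with the library of 3040 reads. For a gene read in few libraries, a large share in the highest of them is partly forced. These values are given without those of other genes, so they are not read as a trait of the 82 genes.

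AMCG00002603 (ENSLOCG00000009138) and AMCG00018923 (ENSLOCG00000007598) had the highest mean level over the early libraries outside dorsal mesoderm. AMCG00002603 held 3859, 244 and 0 CPM in stage 25 ventral mesoderm, where replicate 1 had 3848 reads of it. Its stage 27 dorsal mesoderm libraries held 39.2, 147 and 12.4 CPM, so the early replicate was higher than all of them. AMCG00018923 held 3012, 0 and 171 CPM in stage 24 dorsal endoderm, where replicate 1 had 1137 reads of it. Its stage 27 dorsal mesoderm libraries held 109, 109 and 23.5 CPM. For both genes a single replicate held most of its group's early level.

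AMCG00021215 was read in the most early libraries, 13 of 23. The highest was stage 24 ventral mesoderm replicate 2 with 960.2 CPM, while replicates 1 and 3 of that group held 0 and 40.0 CPM. AMCG00004155 was read in 12 of 23, but at no more than 5.93 CPM. In the library of 3040 reads it had 8 reads, which come to 2632 CPM. Its early mean thus rests on that library.

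The levels of stage 27 were compared with the mean of stages 24 and 25 within each of the other regions, with limma on the 9 libraries of a region. The genes pass the filter of more than 1 CPM in at least 3 libraries chiefly through their stage 27 reads, so the counts are a description. Nothing is read from them beside the share of all genes. A gene with no early read in a region can pass the filter only through all 3 stage 27 libraries. These then all lie above the early ones, and no p is printed for such a gene. The rule also capped the stage 27 level of these regions, which holds down the stage differences of the 82 genes and not those of all genes. The counts are also set against a shift of all genes. The median log2 difference of all genes tested was 2.22 in ventral mesoderm, 1.98 in dorsal endoderm and 1.99 in ventral endoderm, beside more genes read per library at stage 27.

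In ventral mesoderm 54 of the 82 genes were tested and 26 passed the test, each higher at stage 27, beside 31.1% of all genes tested. Their median log2 difference was 1.96, which was -0.26 relative to the median of all genes. For 17 of the 26 only the stage 27 libraries met the filter, so the direction was set in advance. Without stage 27 ventral mesoderm replicate 1, 2 or 3 the count was 3, 5 and 3, but 17 of the 26 then no longer met the filter and were not tested. Of the 9 still tested, 3, 4 and 3 passed. It was 0 with quantile normalization and 1 with limma voom. AMCG00016115 was at 0 in all 6 early ventral mesoderm libraries and at 59.2, 23.0 and 84.6 CPM at stage 27, a log2 difference of 4.79. AMCG00003241 (ENSLOCG00000012904) held 99.7 CPM in stage 25 replicate 2, 0 in the other 5 early ventral mesoderm libraries, and 79.1, 30.6 and 56.4 CPM at stage 27. Its difference was 3.90 (SE 1.33, adjusted p = 0.0484, limma), although its highest single library was an early one. Of 17 alternatives 14 lost this call, with adjusted p from 0.0015 to 0.7.

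In dorsal endoderm 29 genes were tested and 6 passed the test, each higher at stage 27, beside 16.0% of all genes. Their median log2 difference was 0.80, or -1.18 relative to all genes. For 3 of the 6 only the stage 27 libraries met the filter, so the direction was set in advance. With any 1 of the stage 27 dorsal endoderm libraries left out, 3 of the 6 no longer met the filter and were not tested. Of the 3 still tested, none passed without replicate 1 or 3 by limma and 2 passed without replicate 2. All 6 were tested without stage 24 replicate 1, stage 24 replicate 3 or stage 25 replicate 2, and 3 passed in each case. AMCG00000980 was at 0 in all 6 early dorsal endoderm libraries and at 48.8, 49.2 and 11.9 CPM at stage 27, a log2 difference of 4.16. AMCG00016115 held 0, 0 and 0 CPM at stage 24, 111, 0 and 26.0 CPM at stage 25 and 299.8, 271 and 121 CPM at stage 27. Its stage 27 libraries were above all 6 early ones, with a difference of 5.24 (SE 1.52, adjusted p = 0.0340, limma). Of 17 alternatives 9 lost this call, with adjusted p from 0.00995 to 0.588.

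In ventral endoderm 23 genes were tested and 1 passed the test, AMCG00000826 (ENSLOCG00000002732), beside 9.69% of all genes. Their median log2 difference was 0.76, or -1.23 relative to all genes. AMCG00000826 was at 0 in all 6 early libraries and at 8.01, 35.4 and 22.1 CPM at stage 27, a log2 difference of 3.49. Only its stage 27 libraries met the filter, so the direction was set in advance. Stage 24 replicate 3 is the library of 3040 reads, where a count of 0 says little about levels of this size. That library also enters every stage difference of this region. AMCG00000826 was tested and did not pass without stage 24 replicate 1 or 3, and it was no longer tested without any 1 of the stage 27 libraries. The count was 2 without stage 25 replicate 3.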

How the data were processed

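Per the labels' protocols, bowfin foregut was cut in 15 µm sections, each slide was captured within 2 hours, and RNA was amplified as cDNA ahead of library preparation. Trimmomatic 0.38, STAR 2.6, R 3.6.0 and edgeR (no version given) were used, per the submitters' processing notes. The genome build is not given in the sources used here. The authors deposited log2 CPM for 36 libraries. The smallest value, a log2 of 0.87, was the same in every library, as a prior count of 2 gives. Reads and library totals were recovered from the deposited log2 values; below 200 reads, 100% were whole within 0.02, and rebuilt values differed by at most 5.0e-09. CPM here is recovered reads over the library total, without the prior count. Totals were 3040 to 1998280 reads. The floor of a count of 0 is 3 counts over the reads of the group.

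Groups of 3 follow the labels' stage, side and layer. limma 3.58.1 (trended moderated test, R 4.3.3) was fitted to deposited log2 CPM of genes over 1 CPM in at least 3 fitted libraries, 12 at stage 27 and 9 for a region's stages, with Benjamini-Hochberg adjustment over all of them. The code of the test was run on simulated counts, whose spread was not matched to that of these libraries. Alternatives were no filter, a filter of 4 CPM, pseudocounts of 1 and 5 CPM, quantile normalization and limma voom on recovered reads. Further alternatives were all 36 libraries, the replicate number as a block, and leaving out each library of the compared groups. In the stage 27 fits the libraries of the regions not compared were not left out. Leaving out libraries when choosing the genes, when finding the next region and for early levels was added after seeing the data.

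The genes and lists were chosen with earlier results of these data known. Named genes are, for each pattern, at most 2 higher and 2 lower by size of difference, early level, evenness in dorsal mesoderm or number of other stage 27 libraries with a read, and counts of 5 or fewer. Lists of marker symbols written for layers and pathways matched 0 identifiers and were not used.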

Additional observations from a re-analysis of the deposited data

How the results depend on the processing

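Among the stage 27 comparisons, a fit to all 36 libraries gave 1 gene for ventral mesoderm minus ventral endoderm in place of 3 (none of those 3), 0 for dorsal minus ventral endoderm in place of 1 (limma, 3 at an unadjusted p under 0.05), and 1 for dorsal endoderm minus ventral mesoderm in place of 0. Leaving out 1 of the 6 libraries of the compared regions at a time gave 0 to 3, 1 to 1 and 0 to 0 genes in that order. The other 7 alternatives kept each count within 1.5 times. For stage 27 against earlier in ventral mesoderm, the 26 genes became 12 with the 4 CPM filter (14 of the 26 no longer tested), 0 with quantile normalization (limma, 11 at an unadjusted p under 0.05) and 1 with limma voom, and 3 to 28 with 1 library left out (17 of the 26 not tested without a stage 27 library). Of the 26, 12 were still tested with the 4 CPM filter and 11 of them passed. With all 36 libraries 15 of the 26 passed, and 11 were tested and did not. In dorsal endoderm the 6 genes became 2 with no filter, 0 with quantile normalization (limma, 6 unadjusted), 2 with limma voom, 2 with all 36 libraries and 0 to 6 with 1 library left out (3 of the 6 not tested without a stage 27 library). In ventral endoderm the 1 gene became 0 with no filter (limma, 7 unadjusted), quantile normalization (4), limma voom (0) and all 36 libraries (3), and 0 to 2 with 1 library left out (the gene not tested without a stage 27 library). The difference of AMCG00009418 (ENSLOCG00000001686) in dorsal endoderm, 2.23, reversed to -0.10 with quantile normalization. Genes no longer tested aside, the cause was not tested. The unadjusted counts in this paragraph are given without the share of all genes, and nothing is read from them. Correlations were taken between libraries of different groups, on each gene's deviation from its group mean and not on the levels themselves. Those of same-numbered libraries were -0.04 to 0.06 over 45 pairs, and 0 exceeded 0.1. Those of libraries with different numbers covered much the same range, -0.05 to 0.06 over 90 pairs. At stage 27, 8 of 12 libraries correlated best with a library of their own number, a hint from the data and not the design, and in the stage fits 3, 2 and 0 of 9 did in ventral mesoderm, dorsal endoderm and ventral endoderm. Of the pairs compared, 18 at stage 27 shared a number and 36 did not, and in each stage fit 9 did and 18 did not. Some best matches thus fall on a library's own number without any pairing. The number was not taken as a pairing; with it as a replicate block, the dorsal endoderm stage count was 3 and the ventral mesoderm count 27, and the other 4 counts were as reported. With a stage 27 library left out, the rule without its limit on the number of genes gave 72 to 156 genes. The 72 came without ventral mesoderm replicate 2, with 57 of the 82 shared. The 156 came without dorsal mesoderm replicate 3, where a read in 2 libraries then sufficed, with 59 shared. The lists without dorsal mesoderm replicate 1, 2 or 3 (124, 148 and 156 genes) exceeded the limit and were not cut to it. The genes shared after such a cut were not counted. With 723011 reads in the shallowest stage 27 dorsal mesoderm library, levels near 1 read are set by counting error.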

Other observations

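Among the 10520 genes without a gar identifier, 65 met the rest of the rule. The largest difference to the next region among them was that of AMCG00008963, 4.29 on the log2 CPM scale. Its stage 27 dorsal mesoderm libraries held 12.8, 63.5 and 399.7 CPM, a mean of 159 ± 210.3 CPM (SD, n = 3). Replicate 3 held most of that level. The next region was dorsal endoderm, with 0.642, 0 and 9.48 CPM and a mean of 3.38 CPM. The ventral mesoderm mean was 2.09 CPM. The next, AMCG00021572, had a difference of 4.12. Its dorsal mesoderm libraries held 125, 136 and 76.1 CPM, a mean of 112 ± 31.8 CPM (SD, n = 3). Its ventral mesoderm libraries held 0, 0 and 74.7 CPM, a mean of 24.9 CPM. Ventral mesoderm replicate 3 thus held all of that mean and lay just below dorsal mesoderm replicate 3. These values are of the kind that chose the genes and are a description with no test.

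Of the 82 genes, 3 pairs had identifier numbers at most 2 apart, namely AMCG00000899 and AMCG00000900, AMCG00006574 and AMCG00006576, and AMCG00010521 and AMCG00010522. The files do not say whether the order of identifiers is the order of genes in the genome.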
